A study of Arabidopsis thaliana with 4 samples.

Results

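The genes described here are 6 cupin genes of Arabidopsis thaliana most of which encode known or predicted seed storage globulins: PAP85 (AT3G22640), AT2G28490, AT4G36700, AT2G18540, AT1G03890 and AT1G07750. They were taken by locus, through the platform annotation, from 13286 loci that had a probe set naming a single gene. Each of the 6 had exactly 1 such probe set, and all 6 passed the filter on dim signals.

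The arrays compared whole seedlings of the Columbia ecotype carrying pER8-LEC1, a transgene that expresses the embryo transcription factor LEAFY COTYLEDON1 (LEC1) when estradiol is supplied. In the pER8 vector a constitutive promoter drives the estradiol-activated transcription factor, so induction is not tied to a cell type. Seedlings were grown for 4 days with 0.01 mM estradiol (LEC1 induced, n = 2 arrays) or with 0.1% DMSO (control, n = 2 arrays), and both groups carried the transgene. The sample labels do not give the DMSO content of the estradiol medium. LEC1 has no probe set naming it alone in the annotation used, so its induction was not checked, and "LEC1 induced" is a name taken from the treatment. The labels call the 2 samples of a group biological replicates and do not say how many transgenic lines were used. Plants that received estradiol but carried no transgene are not among these 4 arrays, so an effect of LEC1 and an effect of estradiol itself cannot be told apart here.

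Cupins are proteins built on a conserved beta-barrel fold. In seeds the fold is duplicated in the globulins, which fall into a vicilin type and a legumin type (the cruciferins of Arabidopsis) and fill protein storage vacuoles as a nitrogen reserve for germination. Globulin genes are normally active in the maturing embryo, under LEC1 and its partner regulators, and silent in seedlings. Other plant cupins, such as germin-like proteins of the cell wall, have a single barrel and roles outside storage.

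The values are MAS5 signals, a brightness per probe set on a linear scale. Array medians as deposited ranged from 15.5 to 39.4, so signals were quantile normalized on the log2 scale before any comparison. A normalized signal of 13.9, the 40th percentile, is called the dim limit, and a signal under it is taken as a bound. The brightness of a probe set depends on its probes, so levels are compared between arrays and never between genes. Of 14433 probe sets tested with limma, 828 (5.74%) passed at an adjusted p under 0.05, with 408 (2.83%) higher and 420 (2.91%) lower in induced seedlings. Signal ratios between the 3' and 5' probe sets of actin, which reflect RNA integrity and amplification, stood at 3.28 and 3.01 for control replicates 1 and 2 and at 1.96 and 1.94 for the induced replicates. Those of GAPDH were 0.773 and 0.890 against 0.932 and 0.911. The part of these differences in the results below was not tested.

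Of the 6 cupin genes, 4 rose in LEC1-induced seedlings: PAP85, AT2G28490, AT4G36700 and AT1G03890. Each went from a signal under the dim limit on both control arrays to a signal of at least 3009 on both induced arrays. The vicilin-like gene AT2G18540 was dim in controls and weak in induced seedlings and did not pass the test, and AT1G07750 was bright in both groups and did not pass either. The 4 calls stand beside a background of 2.83% of all tested probe sets. A gene that is dim in both controls could enter the test only through its induced arrays, and of 526 probe sets that did so, 22.6% rose. Of the cupin genes, 5 entered that way, and the same 5 had both induced arrays above both controls. For these 5 that order follows from how they entered the test and is no separate result. Among all tested probe sets, 29.3% had that order.

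**Figure D1:**
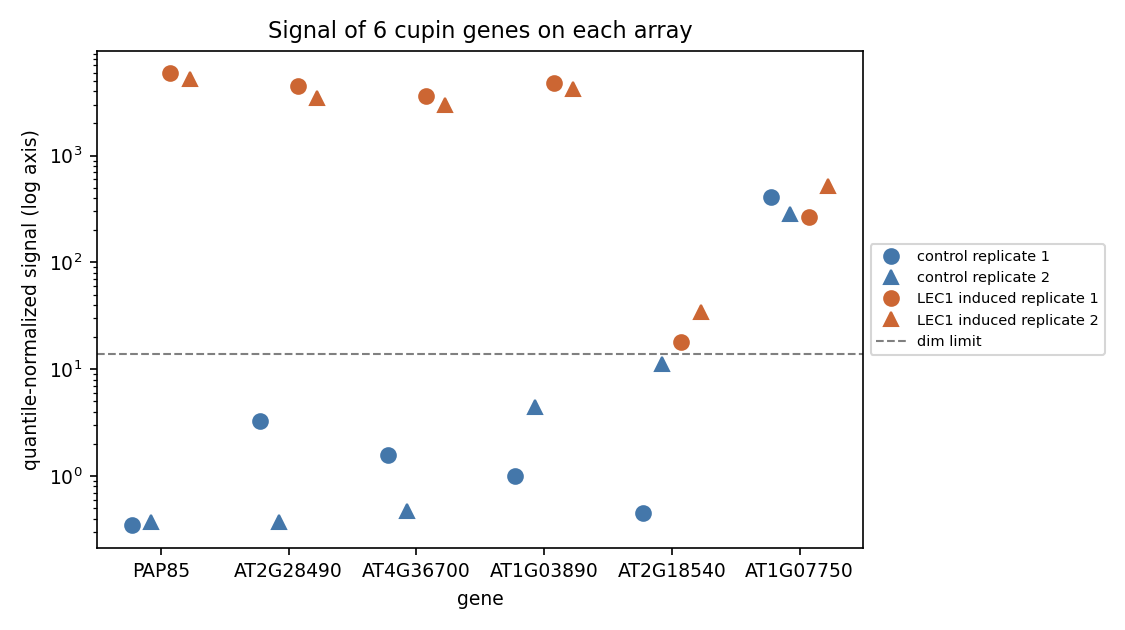
Quantile-normalized signal (log axis) of the 6 cupin genes on each of the 4 arrays, with controls in blue, LEC1-induced arrays in orange and the dim limit of 13.9 as a dashed line. For PAP85, AT2G28490, AT4G36700 and AT1G03890 the induced arrays lie between 3009 and 5892 and the controls under 5, whereas the groups overlap for AT1G07750.

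PAP85 encodes a vicilin-like globulin. Its deposited signals were 0.4 and 0.3 on control replicates 1 and 2, against 8103 and 4312 on induced replicates 1 and 2. Normalization turned these into 0.346 and 0.372 for the controls and 5892 and 5209 for the induced seedlings. Both controls were near the bottom of the scale and both induced arrays were high, with no overlap. The mean log2 signal in induced seedlings was 12.44 ± 0.13 (SD, n = 2). The gene rose at least 399-fold when control signals were set to the dim limit. The fit without that limit gave a limma adjusted p of 4.1e-05. P-values beside the other fold bounds below also come from the fit without the limit.

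AT2G28490 encodes a vicilin-like seed storage protein. It had deposited signals of 2.8 and 0.3 in controls, against 5653 and 2925 after induction. The normalized signals came to 3.27 and 0.372 for controls, against 4439 and 3497 for induced seedlings. Again the groups were far apart, although the controls differed 8.78-fold from each other at signals too dim to be ordered. The gene rose at least 284-fold (induced log2 mean 11.94 ± 0.24 SD, n = 2, with limma adjusted p = 0.0026).

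AT4G36700 encodes another vicilin-like protein. Its deposited signals were 1.4 and 0.4 in controls, against 4333 and 2435 after induction, and 1.58, 0.473, 3600 and 3009 after normalization in the same order. The groups did not overlap and the rise was at least 237-fold (induced log2 mean 11.68 ± 0.18 SD, n = 2, with limma adjusted p = 3.0e-04).

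AT1G03890 is the legumin-type member, a cruciferin relative that lies next to the cruciferin gene CRU2 in the gene order of assembly TAIR10.1. CRU2 itself had no probe set naming it alone and is not analysed here. AT1G03890 had deposited signals of 1.0 and 3.4 in controls, against 6209 and 3573 after induction. Normalized, they read 1.01 and 4.46 for controls, against 4799 and 4221 for induced seedlings, with a wide gap between the groups. The rise was at least 324-fold (induced log2 mean 12.14 ± 0.13 SD, n = 2, with limma adjusted p = 7.2e-04). Vicilin-type and legumin-type genes were thus both among those that rose.

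The size of these 4 rises depends on how near-zero control signals are handled. The fitted log2 changes were 13.91 ± 0.31 SE for PAP85, 11.80 ± 0.93 SE for AT2G28490, 11.90 ± 0.57 SE for AT4G36700 and 11.05 ± 0.67 SE for AT1G03890. With signals under the dim limit set to it they were 8.64, 8.15, 7.89 and 8.34, and all 4 passed (limma adjusted p from 1.6e-04 to 2.0e-04). In the methods' t-test, at a false discovery rate under 0.2 as in the series' design text, PAP85 and AT4G36700 passed (adjusted p = 0.0858 and 0.199). AT2G28490 and AT1G03890, whose control replicates differed more on the log scale, did not (adjusted p = 0.239 and 0.213).

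**Figure D2:**
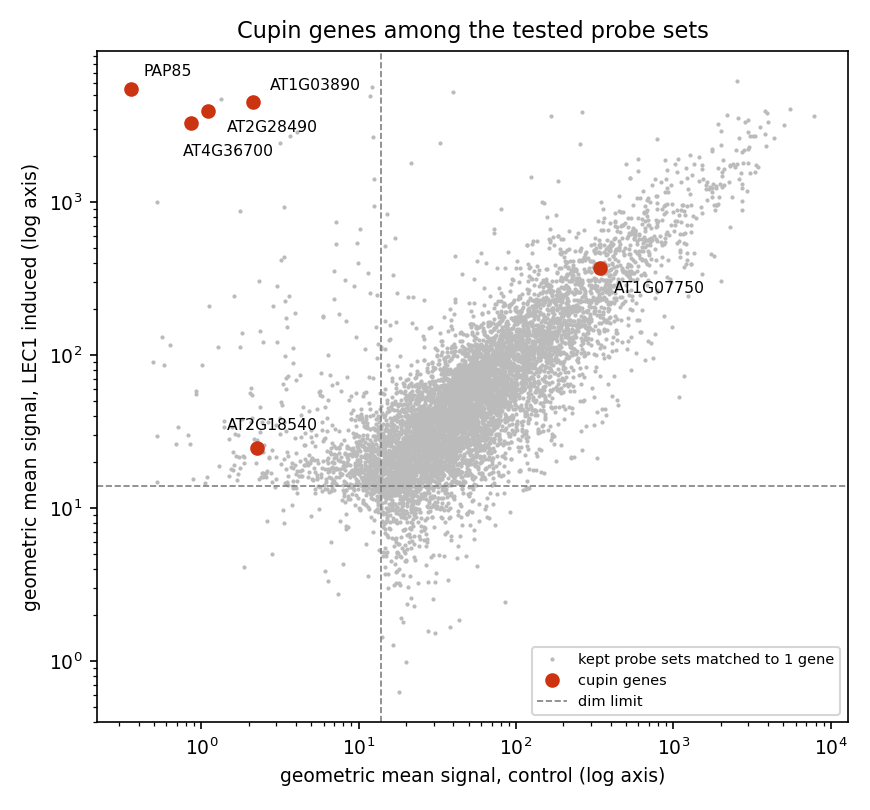
Geometric mean signal in LEC1-induced seedlings against that in controls (both axes log) for tested probe sets matched to 1 gene (grey), with the 6 cupin genes in red and the dim limit as dashed lines. PAP85, AT2G28490, AT4G36700 and AT1G03890 lie at the upper left, at control means under 2.2 and induced means of 3291 to 5540, and AT1G07750 lies within the main cloud.

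Few probe sets moved from dim to bright in this way. Of 22746 probe sets that were not array controls, 23 (0.101%) had both controls under the dim limit and both induced arrays above a signal of 1000, a level chosen after the values were seen. Among these 23, 10 named a single gene, and 4 of the 10 were PAP85, AT2G28490, AT4G36700 and AT1G03890. The cupin genes were themselves chosen with earlier results of these data known, so this count is a description and no test. As bulk measurements of whole seedlings, these signals cannot tell a few cells with much transcript from many cells with little.

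AT2G18540 encodes a further vicilin-like seed storage protein. Its deposited signals were 0.5 and 8.0 in controls, against 30.2 and 32.8 after induction, and its normalized signals were 0.447, 11.3, 17.8 and 34.0 in the same order. Both induced arrays were above both controls, but induced replicate 1 was close to the dim limit and control replicate 2 only just under it. With both controls under the limit the fitted log2 change, 3.46 ± 1.63 SE (95% interval from -0.48 to 7.40), is no measured fold, and it did not pass (limma adjusted p = 0.236). Its controls had a log2 SD of 3.29, and 6 of 517 tested probe sets with both controls under the dim limit (1.16%) had an SD at least that high.

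The fitted log2 change of AT2G18540 depended on both control arrays. Without control replicate 1 it was 1.14, and without control replicate 2 it was 5.91. With dim signals set to the limit it was 0.83 (limma adjusted p = 0.201). The induced mean was 1.77 times the dim limit, a difference that did not pass.

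AT1G07750 encodes a cupin for which no storage role is stated in the sources used here. It had deposited signals of 442.3 and 207.4 in controls, against 398.8 and 439.6 after induction. The normalized signals read 411 and 281 for controls, against 268 and 520 for induced seedlings. Both induced values lay outside the range of the controls, the first below it and the second above. Its log2 change was 0.14 ± 0.41 SE with a 95% interval from -0.86 to 1.13, or 0.551-fold to 2.19-fold, and it did not pass (limma adjusted p = 0.860). The sign was not settled: it turned to -0.28 under median centring, to -0.13 without control replicate 2 and to -0.35 without LEC1 induced replicate 2. It was the only one of the 6 with all 4 arrays above the dim limit.

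The log2 change of PAP85 exceeded that of AT1G07750 by 13.78, and that of AT2G28490, AT4G36700 and AT1G03890 exceeded it by 11.67, 11.76 and 10.92. With dim signals set to the limit these excesses were 8.51, 8.01, 7.75 and 8.21. Against AT2G18540 the same 4 genes were higher by 10.46, 8.35, 8.44 and 7.59, or by 7.81, 7.32, 7.06 and 7.51 with the limit. AT2G18540 itself exceeded AT1G07750 by 3.32, and by 0.69 with the limit. All 9 differences had the same sign in the replicate 1 arrays and in the replicate 2 arrays. The genes and pairs were chosen with earlier results of these data known, so these signs are a description and no test. The exact permutation test over array labels, two-sided, gave p = 0.333 for each, also after adjustment over the 9 pairs, and 2 arrays against 2 cannot give a smaller value.

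**Figure D3:**
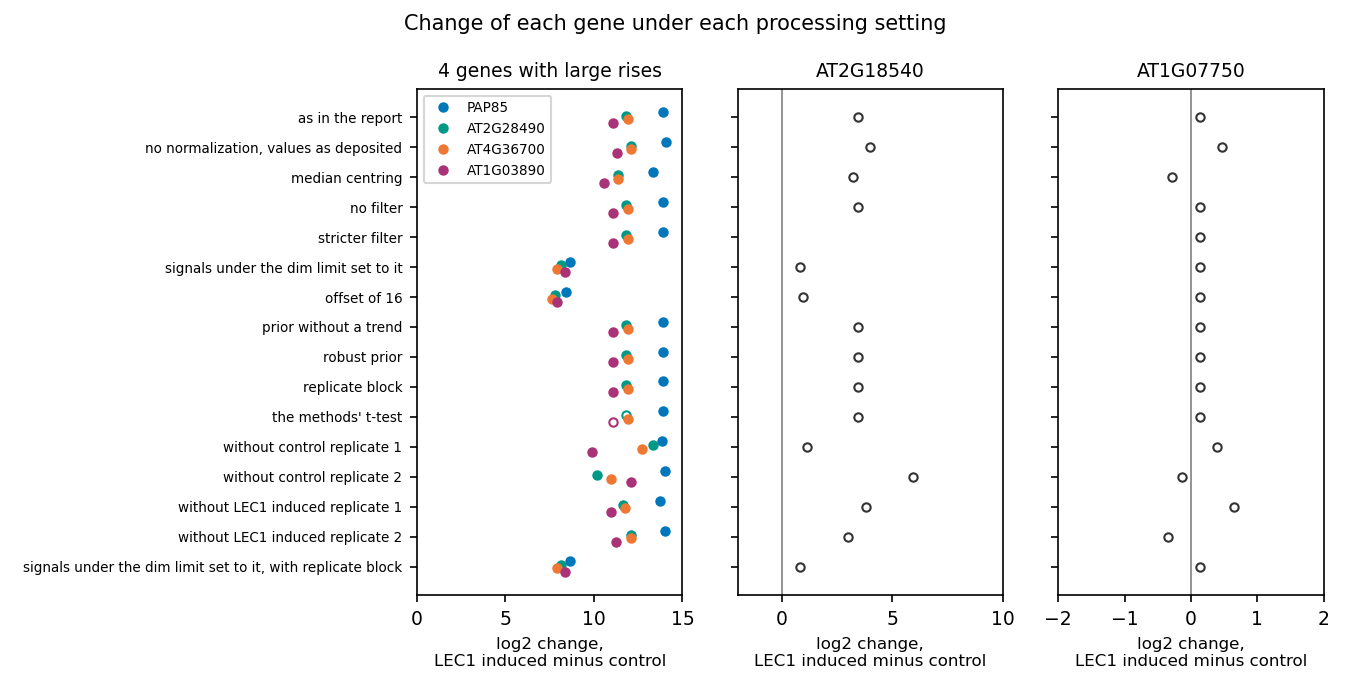
Log2 change (LEC1 induced minus control) of the 6 cupin genes under the setting of the report and under each alternative, with filled points for calls at the setting's threshold and open points for changes that did not pass. PAP85, AT2G28490, AT4G36700 and AT1G03890 stay between 7.60 and 14.06, AT2G18540 lies between 0.83 and 5.91 and was never called, and AT1G07750 lies on both sides of 0.

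The genes also differed in how the induced replicates compared. As deposited, induced replicate 1 was 1.88 times as bright as induced replicate 2 for PAP85, 1.93 times for AT2G28490, 1.78 times for AT4G36700 and 1.74 times for AT1G03890, close to the ratio of the array medians, 1.77. After normalization the same ratios were 1.13, 1.27, 1.20 and 1.14. For AT2G18540 and AT1G07750 the normalized ratio was 0.525 and 0.516, so these genes were dimmer on induced replicate 1. The median log2 SD between induced arrays over all tested probe sets was 0.315. The SD was 0.657 for AT2G18540, 0.676 for AT1G07750 and 0.126 to 0.243 for the 4 that rose. AT2G18540 had induced signals of only 17.8 and 34.0, against a dim limit of 13.9. Between controls the median log2 SD was 0.264 over tested probe sets and 0.595 over those with both controls under the limit. The part of dimness in the spread of AT2G18540 was not tested.

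Genes with the pattern most like that of PAP85 were sought among 7722 other probe sets naming 1 gene and above the dim limit on at least 2 arrays. Likeness was the distance between mean-centred log2 signals over the 4 arrays, with dim signals set to the limit. The nearest was AT3G01570, which encodes an oleosin, a coat protein of oil bodies, at a distance of 0.158. AT2G34700 followed at 0.181 and AT3G63040 at 0.221. Next in order were AT1G03890 at 0.300, AT2G28490 at 0.506 and AT4G36700 at 0.754. AT3G01570 rose at least 407-fold, AT2G34700 at least 353-fold and AT3G63040 at least 343-fold (limma adjusted p = 1.1e-04, 1.2e-04 and 0.0058). For AT1G07750 the nearest were AT2G15560, AT2G25530, AT3G07210, AT3G58800 and AT5G26680, at distances of 0.039 to 0.165. None of these 5 passed (limma adjusted p from 0.834 to 0.963). AT2G15560 lay near the dim limit, with normalized signals of 20.5 and 14.2 in controls, against 8.56 and 26.2 after induction. All genes near PAP85 or AT1G07750 were picked for their pattern on the same 4 arrays. Whether they passed follows from that choice and is no separate result.

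The changes were also read against genes next to the 6 on the chromosome. Of the 24 protein-coding genes that are the first or second neighbours on either side in the gene order of TAIR10.1, 7 had a probe set naming them alone and 6 passed the filter. None of these 6 passed limma's test, 0 had an unadjusted p under 0.05 and 0 passed the methods' t-test. Over all 14433 tested probe sets, 5.74% passed limma's test and 396 passed the methods' t-test. An unadjusted p under 0.05 was found for 3821 of the 14433. With only 6 genes, 0 calls cannot be told apart from these shares. The log2 changes of the 6 neighbours ran from -0.48 for AT4G36680 to 0.64 for AT3G22660. AT3G22660 and AT3G22620 are second neighbours of PAP85, and AT4G36680 and ATU2AF65A, a splicing factor gene, lie beside AT4G36700. ATU2AF65A, the first neighbour of AT4G36700, had signals of 160 and 147 in controls, against 137 and 121 after induction. For AT1G03890 and AT1G07750 no neighbour could be read.

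Cupins outside the storage globulins were mostly dim. None of 8 listed genes for the main cruciferins and the napin-type albumins had a probe set naming it alone, so they are not analysed here. Of 32 listed germin-like genes, which encode mostly cell wall proteins, 12 were named on the arrays and 10 of these were under the dim limit on all 4 arrays. The 2 that were tested, AT3G10080 and AT1G18980, had log2 changes of -1.32 ± 0.34 SE and -1.06 ± 0.31 SE. Although both had an unadjusted p under 0.05, so did 3821 of 14433 tested probe sets. Neither gene passed limma's test (adjusted p = 0.0758 and 0.0971) or the methods' t-test. Under median centring both were called lower (limma adjusted p = 0.0403 and 0.0415). Both were also called when LEC1 induced replicate 2 was left out (0.0402 and 0.0439).

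Of 10 other listed cupin-fold genes 5 were named and 2 were tested. ARD4, an acireductone dioxygenase of the methionine salvage cycle, had a log2 change of 0.93 ± 0.45 SE (limma adjusted p = 0.241), and of 1.55 without LEC1 induced replicate 2, where it passed (0.0332). PRN, which encodes a pirin, had one of 0.81 ± 0.45 SE (limma adjusted p = 0.293). AT2G28680, a further cupin gene, had deposited signals of 0.5 and 4.4 in controls, against 0.6 and 1.4 after induction, under the dim limit on all 4 arrays. ARD4 in that setting was the only germin-like or other cupin-fold gene on these lists to be called higher in any setting run, and the median change over all tested probe sets was 0.00.

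Storage globulins are cut in the vacuole by vacuolar processing enzymes. BETA-VPE, the seed-type enzyme of this family, had normalized signals of 139 and 110 in controls, against 1796 and 1197 after induction, with no overlap. It rose 11.9-fold (log2 change 3.57 ± 0.33 SE, limma adjusted p = 0.0050). GAMMA-VPE and ALPHA-VPE, the forms of vegetative tissue, had log2 changes of 0.66 ± 0.32 SE and 0.41 ± 0.61 SE, neither of which passed (limma adjusted p = 0.250 and 0.698). Of 10 listed genes of processing and vacuolar sorting, 4 were named, 3 were tested and 1 rose. Over all tested probe sets 2.83% rose. The list was chosen with earlier results known, so a count among 3 genes is a description and no test. BETA-VPE did not pass the methods' t-test.

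**Figure D4:**
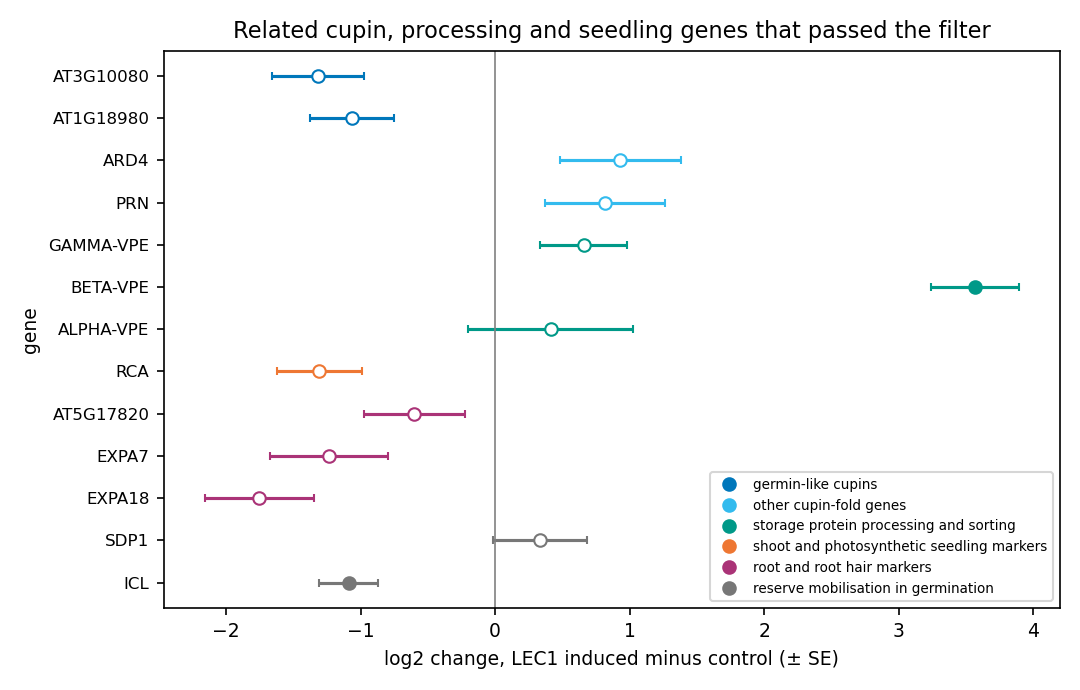
Log2 change (LEC1 induced minus control) with its SE for the related cupins, storage protein processing genes and seedling genes that passed the filter, coloured by list, with filled points for limma adjusted p under 0.05. BETA-VPE, at 3.57, is the filled point to the right, ICL, at -1.09, is the filled point to the left, and the germin-like genes lie at -1.32 and -1.06.

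The tissue label was checked with seedling genes. RCA, the activase of Rubisco, was the only 1 of 9 listed shoot genes named here, with signals of 2613 and 3279 in controls, against 894 and 1565 after induction (limma adjusted p = 0.0651). Of 7 listed root genes 3 were named: EXPA7 and EXPA18, which are expansins of root hairs, and the peroxidase gene AT5G17820. The signals of AT5G17820 were 803 and 875 in controls, against 389 and 785 after induction (log2 change -0.60 ± 0.38 SE). All 3 root genes were above the dim limit on every array, and all 3 were lower in induced seedlings. None passed limma's test (lowest adjusted p = 0.0594) or the methods' t-test. Of the 3 root genes, 2 had an unadjusted p under 0.05, as did 3821 of 14433 tested probe sets. EXPA18 had the largest of these differences, with a log2 change of -1.75 ± 0.41 SE. Under median centring RCA and EXPA18 were called lower (limma adjusted p = 0.0238 and 0.0274), and EXPA18 was also called with an offset of 16 (0.0447) and with a robust prior (0.0498). RCA and all 3 root genes were called lower when LEC1 induced replicate 2 was left out (limma adjusted p from 0.0047 to 0.0355). RCA was also called with LEC1 induced replicate 1 left out (0.0451).

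Germination genes of reserve use were present in both groups. Of 4 listed, 2 were named. ICL, the glyoxylate cycle's isocitrate lyase, had normalized signals of 8878 and 6811 in controls, against 3186 and 4191 after induction, and it fell by 1.09 on the log2 scale (SE 0.22, limma adjusted p = 0.0415). Its call was lost without either control array, without normalization or the filter, with dim signals at the limit, with a prior without a trend and in the methods' t-test. SDP1, a lipase of oil bodies, had a log2 change of 0.34 ± 0.35 SE (limma adjusted p = 0.574). RCA, the 3 root genes and ICL thus had lower mean signals in the group where the 4 globulin genes rose, and SDP1 had a higher one. Of these seedling and germination genes only ICL passed, beside 2.91% of all tested probe sets that were called lower. The part of these differences in the globulin results was not tested.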

How the data were processed

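The authors deposited 1 linear signal intensity per probe set and array. Per the submitters' processing notes the tool was MAS5, and per the labels' protocols the labelled RNA came from a two-cycle amplification. The arrays were Affymetrix ATH1. Neither the scaling target nor detection calls are stated in the sources used. Of 22810 probe sets, 64 array controls were left out. Values under 0.1 were set to 0.1, log2 values were quantile normalized, and probe sets above the 40th percentile of their own array on at least 2 arrays (14433) entered a linear model per probe set in limma 3.58.1 (R 4.3.3), moderated by eBayes with its trend option. Tests were two-sided, and p-values were adjusted over all 14433 by the Benjamini-Hochberg method, with calls under 0.05. On simulated arrays with 14433 probe sets of equal spread, the fit recovered 98 of 100 changes of 2 on the log2 scale. It recovered 100 of 100 changes of 5, with 8 false calls in each case. The spread of the data is not equal. The median log2 SD between controls was 0.264 over tested probe sets and 0.595 over those with both controls under the dim limit. The simulation therefore does not give the power for probe sets of wider spread. Errors are limma's SE or SD over 2 arrays, and this number limits the precision.

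A fold against a group with an array under the dim limit is a lower bound: the brighter group's mean over the dimmer group's mean with each array at the limit or above. The probe sets' genes came from the platform annotation, with 13513 naming 1 gene, 503 several and 8730 none, and 13436 matched in the TAIR10.1 gene table. All 6 probe sets of the cupin genes carry the plain suffix that marks a design against a single gene. The genes, lists and tests were chosen with earlier results of these data known. Named genes were all 6 cupins, up to 4 per related list and the 5 nearest in pattern to PAP85 and to AT1G07750. Chromosomal neighbours were added after values were seen. Alternatives changed the normalization, filter, floor, offset, prior, block, test and arrays used.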

Additional observations from a re-analysis of the deposited data

How the results depend on the processing

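The calls of PAP85 and AT4G36700 were kept under all 15 alternatives, and those of AT2G28490 and AT1G03890 under 14, the exception being the methods' t-test (log2 changes of 11.80 and 11.05, adjusted p = 0.239 and 0.213), where 2 of the 6 cupin genes were called. AT2G18540 was not called under any of 14 alternatives, and did not pass the stricter filter. AT1G07750 was not called under any of 15, and its log2 change turned to -0.284 under median centring and ranged from -0.349 to 0.646 when 1 array was left out. Leaving out 1 array gave 13.72 to 14.03 for PAP85, 10.19 to 13.34 for AT2G28490, 10.97 to 12.71 for AT4G36700, 9.87 to 12.11 for AT1G03890 and 1.14 to 5.91 for AT2G18540, and a lone array was assumed to vary like the other group. The 9 differences between genes kept their sign under 8 alternatives.

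Over all probe sets, the 828 calls became 1409 under median centring, 381 with a prior without a trend, 396 in the methods' t-test, 2583 with the replicate number as a block and 2952 with that block and dim signals set to the limit, a setting chosen after seeing the data. They ranged from 147 to 1803 when 1 array was left out. Without normalization 97 were lower, and the median change of all tested probe sets shifted to 0.62. Under median centring it shifted to -0.14 and 962 were lower, against 420 lower in the report. In the related lists, the 2 calls became 1 without normalization, without the filter, with dim signals at the limit and without the trend, 0 in the methods' t-test, and 6 under median centring, with the replicate block, and with the block and the limit. They ranged from 1 to 9 when 1 array was left out. With the block, with and without the limit, the 6 were BETA-VPE, higher, and ICL, RCA, EXPA18, AT3G10080 and AT1G18980, lower (limma adjusted p up to 0.0383). The labels do not say that replicate numbers pair the arrays, deviations of same-numbered arrays from their group means correlated at 0.311 over tested probe sets, and the replicate block changed no call of the 6 cupin genes. The cause of these shifts was not tested.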
